A study of Mus musculus with 9 samples.

Results

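The Hoxa genes measured in LSKs of transplanted mice were Hoxa2, Hoxa3, Hoxa4, Hoxa5, Hoxa6, Hoxa7, Hoxa9, Hoxa10 and Hoxa11. They are 9 of the 24060 named genes in the count table and were chosen by name, with earlier results of these data known. LSKs, which are Lin-Sca1+Kit+, are the bone marrow cells among which the stem cells and early multipotent progenitors of the blood are found. RNA-seq was available for 3 control, 2 NHD13 and 4 NHD13/MSI2 libraries. The labels give C57BL/6 as the strain and 4 months as the age. The paper counts that time from transplantation, and its donors were grown mice, so the label is not the age of the donor cells. The count table names the controls wild-type. NHD13 mice express NUP98-HOXD13, a fusion of the nucleoporin NUP98 with the homeobox protein HOXD13, from a transgene that the Vav promoter drives in blood cells. NHD13/MSI2 mice carry in addition a tet-on MSI2 allele at Col1A1 and rTTA at ROSA26, so that doxycycline induces the RNA-binding protein MSI2. Bone marrow of all 3 kinds was engrafted into lethally irradiated CD45.1 recipients, which were fed doxycycline for 3 months before CD45.2 donor LSKs were sorted. Neither the labels nor the methods say whether a library came from a single mouse or a pool, so p-values measure the spread between these libraries, which may be technical.

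Hox genes encode homeodomain transcription factors that stand in clusters, and their order along the chromosome follows the order in which they are used along the body axis. In blood, the Hoxa genes are active in stem cells and early progenitors and are shut off as cells mature. Trithorax proteins such as MLL keep them on and Polycomb complexes keep them off. HOXA proteins bind DNA together with TALE homeodomain partners of the MEIS and PBX families, and NUP98 fusions are known for keeping Hoxa genes on in leukaemia.

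The members lie on the minus strand of mouse chromosome 6, at positions 52162417 to 52245810 of GRCm38, a span of 83.4 kb in the GENCODE M21 annotation. Per the processing notes, the authors counted on mm9, so these positions describe the genes and not the counted exons. Of the members, Hoxa2 (ENSMUSG00000014704.10) lies at the lowest coordinates and Hoxa11 (ENSMUSG00000038210.10) at the highest. Hoxa7 (ENSMUSG00000038236.8) lies at 52214491 to 52221854, Hoxa9 (ENSMUSG00000038227.15) at 52223100 to 52231089 and Hoxa10 (ENSMUSG00000000938.11) at 52231197 to 52240854, so these 3 are neighbours. All 9 are protein-coding.

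RefSeq gives promoter sequences on GRCm38.p6 for 9 transcription starts of 8 members, and Hoxa4 had no entry. The 250 bases before the start are shown for Hoxa7 and Hoxa10, which stand out among the values below by rising and falling the most, and for Hoxa9, which lies between them. All run 5′ to 3′ on the minus strand, and capitals mark matches to TTTATG, a form of the site of CDX factors, known as upstream activators of Hox genes.
Hoxa7, chr6:52218574-52218823: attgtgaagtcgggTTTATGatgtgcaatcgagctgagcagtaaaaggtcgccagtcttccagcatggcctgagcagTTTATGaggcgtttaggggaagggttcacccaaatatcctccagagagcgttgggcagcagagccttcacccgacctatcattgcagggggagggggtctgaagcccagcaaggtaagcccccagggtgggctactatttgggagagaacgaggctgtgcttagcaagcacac
Hoxa9, chr6:52227371-52227620: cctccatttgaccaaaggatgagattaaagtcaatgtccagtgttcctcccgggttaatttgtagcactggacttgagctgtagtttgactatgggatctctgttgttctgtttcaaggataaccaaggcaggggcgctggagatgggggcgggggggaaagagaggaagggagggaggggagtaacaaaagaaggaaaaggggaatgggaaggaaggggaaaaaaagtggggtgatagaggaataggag
Hoxa10, upstream start, chr6:52240855-52241104: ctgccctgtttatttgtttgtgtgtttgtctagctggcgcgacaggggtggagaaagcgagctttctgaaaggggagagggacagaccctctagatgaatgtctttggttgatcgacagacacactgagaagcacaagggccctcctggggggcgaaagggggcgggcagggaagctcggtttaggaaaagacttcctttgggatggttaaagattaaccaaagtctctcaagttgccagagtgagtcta
Hoxa10, downstream start, chr6:52234940-52235189: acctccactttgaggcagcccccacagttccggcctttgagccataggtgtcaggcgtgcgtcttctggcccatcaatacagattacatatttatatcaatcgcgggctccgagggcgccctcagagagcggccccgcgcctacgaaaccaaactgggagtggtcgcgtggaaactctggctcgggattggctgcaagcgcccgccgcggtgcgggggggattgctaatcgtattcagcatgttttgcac

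Letters were searched on both strands, with no overlap between the matches to different motifs in the member promoters. TTTATG occurred in 1 of the 9 member promoters, that of Hoxa7, where it stood at 2 places, against 10.8% of 32851 mouse promoters of the same length. The PBX-HOX motif TGATTNAT was found in the promoter of Hoxa2 alone among the members and in 2.82% of all promoters. The MEIS motif TGACAG was found in those of Hoxa2 and Hoxa3 and in 15.9% of all promoters. CpG dinucleotides numbered 7 before the start of Hoxa7, 3 before that of Hoxa9, 7 at the upstream and 20 at the downstream start of Hoxa10, with a median of 6 over all promoters. These are counts of letters in one window and not sites. Cdx1, Cdx2 and Cdx4 had 0 counts in all 9 libraries, which allows at most 3 counts in each, or 0.195 CPM, counts per 1000000 counts of the library, where a count weighs most.

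Libraries held 19242153 to 23013493 counts on named genes. CPM are scaled by TMM factors, which lay between 1.05 and 1.09 in the control and NHD13 libraries and between 0.785 and 0.973 in those labelled NHD13/MSI2, with 0.785 in replicate 4. That replicate also stood apart in its counts, with a chi-square per gene of 364.9 to 390.4 against its own group, where other pairs of the group reached 30.1. Hoxd13, part of the fusion, had 0 counts in the controls and 13 to 25 in the 6 other libraries. Msi2 went against its label. It was at 223, 316 and 266 CPM in the controls, at 139 and 111 CPM in NHD13, and at 88.0, 77.1, 82.8 and 241 CPM in the libraries labelled NHD13/MSI2. Whether RNA of the MSI2 transgene is counted under Msi2 is not given in the sources used here. LSK is the cell type label of all 9 libraries, but among the controls, replicate 1 has "bulk" in its library name, and replicates 2 and 3 have MPP and HSC in theirs. By Xist and Y-linked genes, control replicates 1 and 3 were female and the other libraries male. Of the Y-linked genes, Ddx3y was at only 3.83, 5.98, 17.6 and 5.52 CPM in the libraries labelled NHD13/MSI2. It was at 229 CPM in control replicate 2 and at 172 and 250 CPM in NHD13. Eif2s3y, Kdm5d and Uty showed no such fall.

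Compared with the controls, the libraries labelled NHD13/MSI2 had more RNA of Hoxa7, Hoxa9, Hoxa5 and Hoxa3 and much less of Hoxa10. Hoxa7 was 9.18-fold higher and Hoxa10, its next neighbour but one, 17.6-fold lower. Of the 8 members tested, 4 were called higher and 1 lower at an adjusted p under 0.01 by edgeR's quasi-likelihood test. Among all 13355 genes tested, 11% were called, 4.49% as higher and 6.55% as lower. The median log2 fold change of the members was 1.26, against -0.01 over all tested genes. Counted by separation, 5 members were higher in every library labelled NHD13/MSI2 than in every control and 1 was lower, against 15.3% and 20.4% of all tested genes. In these bulk libraries, fewer cells of a kind and less RNA per cell cannot be told apart.

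Hoxa7 encodes a factor of the middle of the cluster whose RNA is often high in leukaemias with MLL fusions. It was at 18.1, 16.4 and 19.2 CPM in control replicates 1 to 3, with a mean of 17.9 ± 1.40 (SD, n = 3). NHD13 replicates 1 and 2 had 68.3 and 164 CPM. The 4 libraries labelled NHD13/MSI2 had 174, 136, 156 and 190 CPM, a mean of 164 ± 23.4 (SD, n = 4). Every library with the fusion thus lay above every control, while NHD13 replicate 2 fell within the range of the libraries labelled NHD13/MSI2. The log2 fold change was 3.20 (SE 0.30) for the libraries labelled NHD13/MSI2 over control, with an adjusted p of 0.000166 by edgeR. It was 2.70 (SE 0.32) for NHD13 over control, with an adjusted p of 0.00205. Between the libraries labelled NHD13/MSI2 and NHD13 it was 0.50 (SE 0.30), with an adjusted p of 0.392. In the annotation 586 of the exon bases of Hoxa7, or 20.4%, overlap the antisense RNA Hoxaas3, and the strand setting of the counting is not given in the sources used here, so reads of the overlap cannot be assigned to one of them.

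Hoxa9, which supports the self-renewal of stem cells and is among the best known leukaemia genes of the cluster, had the highest counts of all members. It stood at 74.99, 72.8 and 104 CPM in the controls, a mean of 83.8 ± 17.3 (SD, n = 3). In NHD13 it was at 116 and 169 CPM. Libraries labelled NHD13/MSI2 had 189, 183, 166 and 210 CPM, a mean of 187 ± 18.0 (SD, n = 4). The control with the most Hoxa9, replicate 3, was still below NHD13 replicate 1, and the NHD13 range reached into that of the libraries labelled NHD13/MSI2. Hoxa9 was 2.23-fold higher in the libraries labelled NHD13/MSI2 than in the controls (log2 1.16, SE 0.19, adjusted p 0.00265 by edgeR). Its change in NHD13 over control was 1.70-fold (log2 0.77, SE 0.22) and did not pass, at an adjusted p of 0.119. Mir196b lies within Hoxa9 and shares 85 of its exon bases.

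Hoxa10 encodes a factor that is expressed in stem and progenitor cells and acts in early myeloid and megakaryocytic development. Its levels ran opposite to those of Hoxa7 and Hoxa9. Controls had 25.5, 29.6 and 33.4 CPM, a mean of 29.5 ± 3.96 (SD, n = 3). NHD13 replicate 1 had 22.9 CPM and replicate 2 had 3.75 CPM. Libraries labelled NHD13/MSI2 had 1.29, 2.29, 1.40 and 1.69 CPM, a mean of 1.67 ± 0.448 (SD, n = 4), from 25 to 46 counts each. The 3 groups did not overlap, but the NHD13 libraries lay far apart, one close to the controls and the other close to the libraries labelled NHD13/MSI2. The fall from control to the libraries labelled NHD13/MSI2 was -4.14 on the log2 scale (SE 0.54, adjusted p 0.000835 by edgeR). Between NHD13 and the libraries labelled NHD13/MSI2 the log2 difference was -2.99 (SE 0.55), a 7.97-fold lower level, with an adjusted p of 0.0113 that just missed the threshold. DESeq2 gave that difference an adjusted p of 1.37e-05.

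**Figure D1:**
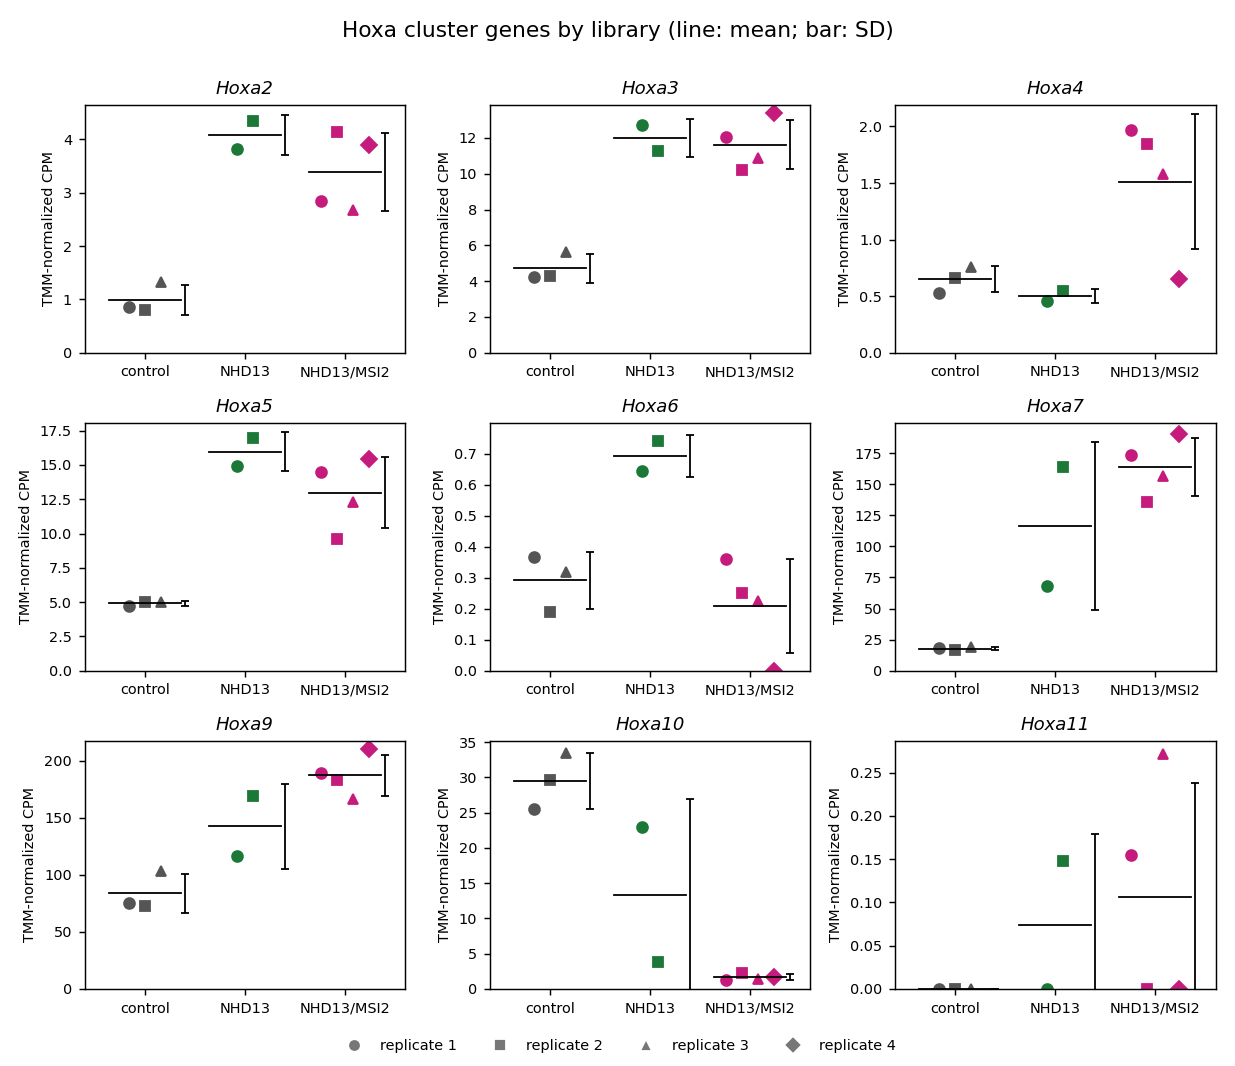
Level of each member in each library, in TMM-normalized CPM on linear axes that start at 0 and differ between panels. Points are libraries with a marker for the replicate number, horizontal lines are group means and side bars are 1 SD, cut at 0 (n = 3, 2 and 4). Hoxa7 rises from 16.4 to 19.2 CPM in the controls to 136 to 190 CPM in the libraries labelled NHD13/MSI2, while Hoxa10 goes from 25.5 to 33.4 CPM down to 1.29 to 2.29 CPM.

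Hoxa5, known for its role in lung development and in the balance of the erythroid and myeloid lineages, was at 4.70, 5.03 and 4.998 CPM in the controls. It was at 14.9 and 17.0 CPM in NHD13 and at 14.5, 9.62, 12.3 and 15.4 CPM in the libraries labelled NHD13/MSI2. The SD of the controls was 0.181 CPM (n = 3), and all 6 libraries with the fusion were above them. The gene was 3.25-fold higher in NHD13 (log2 1.70, SE 0.26, adjusted p 0.00993 by edgeR). In the libraries labelled NHD13/MSI2 it was 2.64-fold higher than in the controls (log2 1.40, SE 0.23, adjusted p 0.00287).

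Hoxa3 and Hoxa2 act in the pharyngeal arches and the hindbrain of the embryo, and Hoxa3 in the thymus and parathyroid. Hoxa3 was at 4.21, 4.27 and 5.64 CPM in the controls, 12.7 and 11.3 CPM in NHD13, and 12.1, 10.2, 10.9 and 13.4 CPM in the libraries labelled NHD13/MSI2. Hoxa2 was at 0.859, 0.807 and 1.32 CPM in the controls, 3.82 and 4.35 CPM in NHD13, and 2.84, 4.14, 2.67 and 3.89 CPM in the libraries labelled NHD13/MSI2. For both genes the controls lay below all other libraries, and the NHD13 values lay within or beside the range of the libraries labelled NHD13/MSI2. Hoxa3 was called higher in the libraries labelled NHD13/MSI2 than in the controls (log2 1.30, SE 0.23, adjusted p 0.00375 by edgeR), and its log2 change of 1.35 in NHD13 did not pass at an adjusted p of 0.0276. Hoxa2 missed the threshold in both, with log2 changes of 1.76 (SE 0.39, adjusted p 0.0111) and 2.03 (SE 0.44, adjusted p 0.0425). By DESeq2, Hoxa2 passed in both, with adjusted p of 4.68e-05 and 0.000256, and Hoxa3 passed in NHD13 as well, at 4.41e-05. Hoxa3 spans several other genes of the cluster, and parts of its exons overlap other annotated transcripts on either strand.

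Hoxa4, a gene of the anterior part of the cluster with a role in vertebral patterning, showed another order of the groups. It was at 0.532, 0.664 and 0.760 CPM in the controls and at 0.460 and 0.543 CPM in NHD13. In the libraries labelled NHD13/MSI2 it was at 1.97, 1.85, 1.58 and 0.649 CPM. Replicates 1 to 3 were thus above all other libraries and replicate 4 was within the control range. The log2 difference of 1.21 (SE 0.56) from control had an adjusted p of 0.166, and that of 1.58 (SE 0.66) from NHD13 an adjusted p of 0.200, both by edgeR. With replicate 4 left out these were 1.46 with an adjusted p of 0.0519 and 1.84 with an adjusted p of 0.0690. Counts were 10 to 38 per library, and 255 of the exon bases overlap the antisense RNA Gm29430.

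Hoxa6 and Hoxa11 were near the limit of what these libraries can count. Hoxa6, which takes part in patterning the thoracic skeleton, had 9, 4 and 8 counts in the controls, 14 and 15 in NHD13, and 7, 5, 5 and 0 in the libraries labelled NHD13/MSI2. Both NHD13 libraries, at 0.644 and 0.741 CPM, were above all others, which reached 0.368 CPM, but none of its 3 comparisons passed (adjusted p of 0.346 to 0.769 by edgeR). The 0 in replicate 4 allows up to 0.195 CPM. Hoxa11, known from the limb and the uterus, had 3 counts in NHD13 replicate 2, 3 and 6 counts in replicates 1 and 3 labelled NHD13/MSI2, and 0 in all others. It did not pass the filter on low counts and was not tested. Hoxa13, which lies beyond Hoxa11, was at 0 counts in all libraries.

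The shift in NHD13 alone was smaller in the number of calls. Of the 8 members tested, 2 were called higher than in the controls, Hoxa7 and Hoxa5, and none lower, with 1.03% of all genes called, 0.824% as higher and 0.21% as lower. The median log2 fold change was 1.28, against 0.02 over all genes. With 2 NHD13 libraries, 6 members lay above all controls and 1 below, against 18.9% and 18.5% of all tested genes. Both comparisons use the same controls, so their shared direction is not independent. Between the libraries labelled NHD13/MSI2 and NHD13, none of the 8 members was called by edgeR, with 3.17% of all genes called, 0.584% as higher and 2.58% as lower. At an unadjusted p under 0.05 there were 2 members, Hoxa4 and Hoxa10, with 21.7% of all genes, and DESeq2 called 1, Hoxa10. At an adjusted p under 0.05, 1, 6 and 4 members passed between the libraries labelled NHD13/MSI2 and NHD13, between the former and control, and in NHD13 over control, against 8.81%, 20.6% and 2.89% of all genes. Between the libraries labelled NHD13/MSI2 and NHD13 the median log2 fold change of the members was -0.16, against -0.03 over all genes.

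These calls rest on few libraries. In the comparison of the libraries labelled NHD13/MSI2 with control, the 5 calls became 2 without control replicate 1 or without control replicate 2, and 3 without control replicate 3. They became 0 when the 2 controls named MPP and HSC were left out together, as did those of NHD13 over control, with 118 and 8 calls then left over all genes. With the 2 female controls left out, so that all libraries were male, no member was called over control in either comparison, while the log2 changes of Hoxa7 and Hoxa10 in the libraries labelled NHD13/MSI2 over control were 3.36 and -4.10 (adjusted p 0.0261 and 0.0311 by edgeR). Without replicate 4 of the libraries labelled NHD13/MSI2, the counts stayed at 5, 2 and 0. In NHD13 over control the 2 calls became 0 without any one control, and 1 without either NHD13 library or without replicate 1, 2 or 3 labelled NHD13/MSI2. DESeq2 called 4 there. The log2 changes of Hoxa2, Hoxa3, Hoxa4, Hoxa5, Hoxa7, Hoxa9 and Hoxa10 over control kept their sign in all 17 other settings, in both comparisons.

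**Figure D2:**
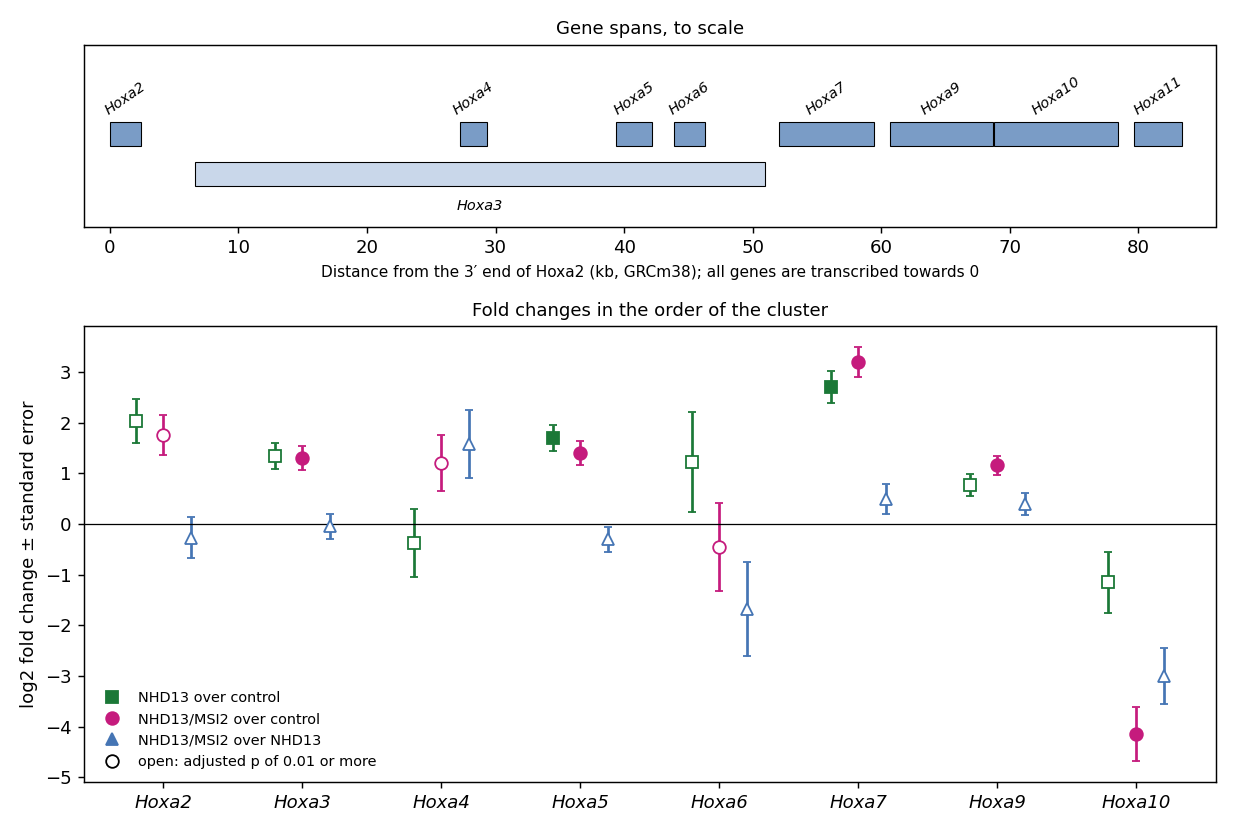
Map of the gene spans (kb from the 3′ end of Hoxa2, to scale) above the log2 fold changes of the 8 tested members in the order of the cluster, as estimates ± standard error from edgeR. Filled symbols have an adjusted p under 0.01. Hoxa7 stands at 2.70 and 3.20 over control, and Hoxa10, at the right, at -1.14 in NHD13 and -4.14 in the libraries labelled NHD13/MSI2.

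The makeup of the Hoxa RNA differed between the groups. To compare members with each other, CPM were divided by the length in kb of all exons of each gene in GENCODE M21, with overlaps counted once. The authors counted on mm9, so the counted exons may differ in length. In the controls Hoxa9 led with 15.0 ± 3.09 CPM per kb (SD, n = 3), before Hoxa10 with 9.02 ± 1.21, Hoxa7 with 6.21 ± 0.488 and Hoxa5 with 2.62 ± 0.0963, and the other members had less than 1 CPM per kb each. In the libraries labelled NHD13/MSI2 the order began with Hoxa7 at 57.0 ± 8.13 CPM per kb (SD, n = 4), Hoxa9 at 33.5 ± 3.22 and Hoxa5 at 6.91 ± 1.38, and Hoxa10 stood at 0.510 ± 0.137 CPM per kb, behind Hoxa3, Hoxa2 and Hoxa4. Hoxa10 thus went from rank 2 to rank 7 of 9.

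Expressed as a share of the summed level per kb, Hoxa7 was 17.9% ± 1.65 of the Hoxa RNA in the controls and 55.2% ± 2.35 in the libraries labelled NHD13/MSI2. The share of Hoxa9 was 42.7% ± 2.71 and 32.6% ± 2.22, and that of Hoxa10 was 25.9% ± 1.91 and 0.505% ± 0.178, in the same order. The summed level of the 9 genes was 129 to 169 CPM in the controls, 240 and 371 CPM in NHD13, and 348 to 435 CPM in the libraries labelled NHD13/MSI2. The ratio of Hoxa9 to Hoxa10, in CPM, was 2.46 to 3.10 in the controls, 5.07 and 45.0 in NHD13, and 79.9 to 146 in the libraries labelled NHD13/MSI2. No test was run on shares, sums or ratios.

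**Figure D3:**
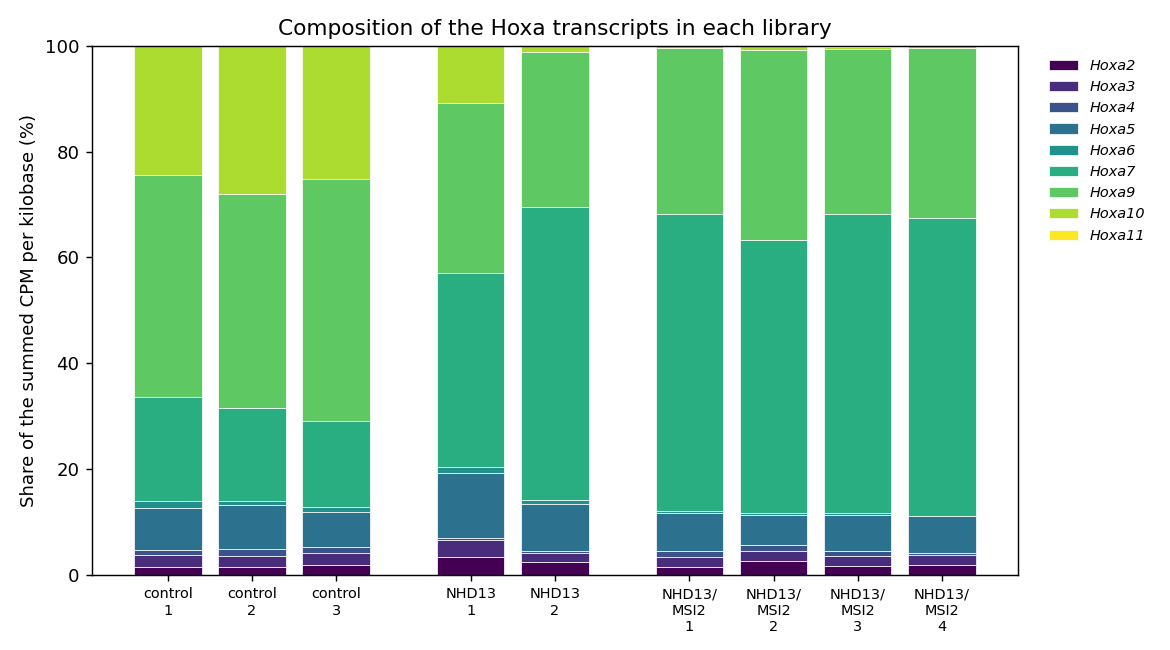
Share of each member in the summed CPM per kb of the 9 Hoxa genes, as stacked bars for each library that add up to 100%. Hoxa10 takes 24.4 to 28.0% in the controls, 10.8 and 1.11% in NHD13 replicates 1 and 2, and 0.367 to 0.767% in the libraries labelled NHD13/MSI2, while Hoxa7 takes 16.4 to 19.7%, 36.6 and 55.3%, and 51.7 to 56.7%.

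Among the members, the 2 NHD13 libraries differed most at 3 neighbouring genes. Hoxa10 was 6.10-fold lower in replicate 2 than in replicate 1, Hoxa7 was 2.40-fold higher and Hoxa9 1.45-fold higher. The other 5 tested members agreed within ratios of 0.884 to 1.18. The 2 libraries also differed beyond the cluster. Over the tested genes their chi-square per gene was 72.1, against 24.0 to 42.5 for pairs of controls. The part of this wider difference in the Hoxa values was not tested. At Hoxa7, Hoxa9 and Hoxa10, replicate 2 was the NHD13 library nearer to those labelled NHD13/MSI2. The estimates move accordingly. Without NHD13 replicate 1, the log2 fold change of Hoxa10 was -2.97 in NHD13 over control (adjusted p 0.0109) and -1.14 between the libraries labelled NHD13/MSI2 and NHD13 (adjusted p 0.146). Without NHD13 replicate 2 it was -0.38 (adjusted p 0.932) and -3.73 (adjusted p 0.000631). For Hoxa7, the difference between the libraries labelled NHD13/MSI2 and NHD13 was 0.03 without replicate 1 and 1.30 without replicate 2 (adjusted p 0.988 and 0.0163 by edgeR), and its change in NHD13 over control was 3.20 and 1.92. That of Hoxa9 in NHD13 over control was 1.01 and 0.46.

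Of 9 genes in the list of genes around the cluster, 7 were tested, and 1, Skap2, was called in the libraries labelled NHD13/MSI2 over control, where 11% of all genes were called. None was called by edgeR in the other comparisons, with 1 at an unadjusted p under 0.05 in NHD13 over control and 3 between the libraries labelled NHD13/MSI2 and NHD13, against 13.5% and 21.7% of all genes. Skap2, a Src-associated adaptor protein, was at 289, 277 and 289 CPM in the controls, 308 and 400 CPM in NHD13, and 577, 592, 582 and 607 CPM in the libraries labelled NHD13/MSI2 (log2 1.05, SE 0.14, adjusted p 0.000883 by edgeR). All libraries labelled NHD13/MSI2 were above all others. The median log2 fold change of the flanking genes in that comparison was 0.12. Of 6 noncoding RNAs of the cluster in the table, Hoxaas3 alone was tested. It was at 0.981, 0.475 and 1.24 CPM in the controls, 2.16 and 2.07 CPM in NHD13, and 3.47, 2.49, 3.08 and 2.53 CPM in the libraries labelled NHD13/MSI2. Its order of groups was that of Hoxa7, with which it shares exon bases, and its log2 change of 1.68 (SE 0.45) over control had an adjusted p of 0.0275.

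Of the DNA-binding partners of the HOXA proteins, Meis1 and Pbx3 had larger changes than any tested member in the libraries labelled NHD13/MSI2 over control. Among 6 tested TALE genes, 1 was called higher and 1 lower in that comparison, against 11% of all genes in either direction. Meis1, the partner that works with Hoxa9 in leukaemia models, was at 1015, 705 and 863 CPM in the controls, 523 and 158 CPM in NHD13, and 6.41, 4.24, 4.16 and 11.7 CPM in the libraries labelled NHD13/MSI2 (log2 -7.03, SE 0.55, adjusted p 6e-05 by edgeR). The 3 groups did not overlap, and replicate 2 was the lower of the NHD13 libraries, as for Hoxa10.

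Pbx3 ran the other way and was already high in NHD13. It was at 6.17, 5.55 and 4.00 CPM in the controls, 119 and 149 CPM in NHD13, and 156, 143, 137 and 141 CPM in the libraries labelled NHD13/MSI2. The log2 change over control was 4.68 (SE 0.21, adjusted p 1.41e-05) in NHD13 and 4.78 (SE 0.20, adjusted p 4.56e-06) in the libraries labelled NHD13/MSI2, by edgeR. Between the latter and NHD13, Meis1 was called lower (log2 -5.69, adjusted p 0.000700), which makes 1 of 6, and the log2 difference of Pbx3 was 0.11 (adjusted p 0.800). Pbx2, Pbx4, Meis3 and Pknox1 passed in none of the comparisons.

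**Figure D4:**
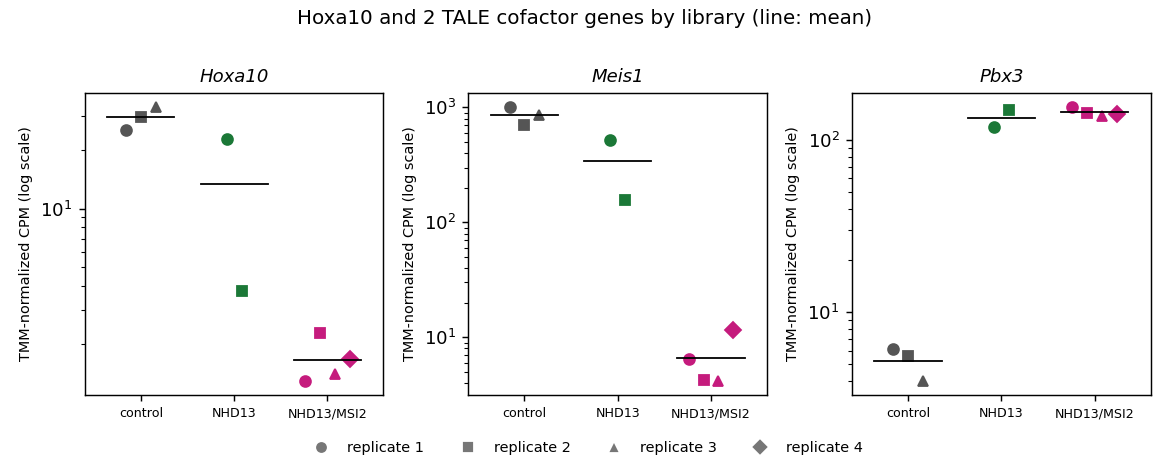
Hoxa10, Meis1 and Pbx3 by library, in TMM-normalized CPM on log axes that differ between panels. Points are libraries and lines are group means. In NHD13 replicate 2 (square), Hoxa10 is at 3.75 and Meis1 at 158 CPM, between replicate 1 and the libraries labelled NHD13/MSI2, while Pbx3 is at 119 and 149 CPM in the NHD13 libraries, against 4.00 to 6.17 CPM in the controls.

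Genes of the other Hox clusters were also called over control. The table held 28 Hoxb, Hoxc and Hoxd genes. Tested were 13, of which 6 were called higher and 1 lower in the libraries labelled NHD13/MSI2, with a median log2 change of 4.27, against 4.49% and 6.55% of all genes called higher and lower. In NHD13 over control 5 were called, all higher, against 0.824% of all genes. Between the libraries labelled NHD13/MSI2 and NHD13, 1 was called, as lower, against 2.58%. Some of these genes had no counts in the controls, whereas 8 of the 9 Hoxa genes were counted there. Hoxc6 had 0 counts in all controls and 104 to 252 in the libraries labelled NHD13/MSI2, a level at least 77.4-fold higher. Hoxb8, also at 0 in the controls, was at least 26.9-fold higher. Hoxc5 had 2 to 6 counts in the controls and was at 28.3 and 54.3 CPM in NHD13 and at 17.3 to 30.5 CPM in the libraries labelled NHD13/MSI2. Hoxb2 had 42 to 45 counts in the controls and 0 in the 6 libraries with the fusion, a level at least 11.8-fold lower in those labelled NHD13/MSI2. Folds against 0 counts use 3 counts in each library and cover counting error only.

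Among genes known to act on the cluster, none of 21 Polycomb genes was called by edgeR in any of the 3 comparisons. At an unadjusted p under 0.05 there were 3 of them in the libraries labelled NHD13/MSI2 over control, 2 in NHD13 over control and 3 between the libraries labelled NHD13/MSI2 and NHD13, against 32.8%, 13.5% and 21.7% of all genes. Of 19 MLL-complex genes and NUP98 partners, 1 was called lower in the libraries labelled NHD13/MSI2 over control, Mllt3, which encodes AF9, against 6.55% of all genes. It fell from 63.3 to 116 CPM in the controls to 0.207 to 4.28 CPM (log2 -5.15, SE 0.68, adjusted p 0.000922). Mllt3 alone was also called lower against NHD13 (log2 -4.54, SE 0.70, adjusted p 0.00547 by edgeR), with 2.58% of all genes. In NHD13 over control none of this list was called, against 1.03% of all genes. Among 7 tested upstream regulators, 2 were called higher in the libraries labelled NHD13/MSI2 over control, against 4.49% of all genes. Rara, a retinoic acid receptor, rose from a mean of 2.43 to 9.47 CPM (log2 1.96, adjusted p 0.00540), and Usf1, a factor of boundary elements, from 44.0 to 83.5 CPM (log2 0.92, adjusted p 0.00683).

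Of 20 tested genes reported as targets of Hoxa9 and Meis1, 2 were called higher and 3 lower in the libraries labelled NHD13/MSI2 over control, against 4.49% and 6.55% of all genes. Cebpa, a myeloid transcription factor, rose from a mean of 3.59 to 16.2 CPM (log2 2.17, adjusted p 0.00136 by edgeR). The kinase gene Camk2d fell from a mean of 40.8 to 2.12 CPM (log2 -4.28, adjusted p 0.00311), and the receptor gene Flt3 from 614 to 152 CPM (log2 -2.01, adjusted p 0.00497). In NHD13 over control 1 target was called, Cd34, as lower, against 0.21% of all genes. Cd34 and Flt3, both called lower in the libraries labelled NHD13/MSI2 over control, are also counted among the LSK markers below. Between the libraries labelled NHD13/MSI2 and NHD13 none was called by edgeR, with 10 at an unadjusted p under 0.05, against 21.7% of all genes.

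The genes whose pattern over the 9 libraries was most like that of Hoxa9 and Hoxa10 were sought among 10966 tested genes with a mean of at least 50 counts. Likeness was Pearson's r of log2 CPM, given as a description over libraries that share their group structure. For Hoxa9 these were Uso1, Ryr1, Tiam2, Tle3 and Pik3c2a, with r of 0.97 to 0.98. Tle3, a Groucho corepressor, was at 18.6 ± 1.87 CPM in the controls (SD, n = 3) and at 41.2 ± 5.76 CPM in the libraries labelled NHD13/MSI2 (SD, n = 4). For Hoxa10 they were Ttc39b, Myct1, Cyp7b1, Lcp2 and Hebp1, with r of 0.98 to 0.99. Myct1 was at 159 ± 10.4 CPM in the controls, 74.5 and 23.4 CPM in NHD13, and 6.90 ± 2.24 CPM in the libraries labelled NHD13/MSI2, and Cyp7b1 had 0 counts in all 4 of the latter.

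Markers of the sorted cells and of other lineages differed between the groups as well. All 7 LSK markers were counted in every group, and Kit was at 908 to 2254 CPM. Of these markers 4 were called lower in the libraries labelled NHD13/MSI2 over control, among them Cd34 and Slamf1, and none higher, against 6.55% and 4.49% of all genes. Ly6a, which encodes the Sca1 of the sort, had the opposite sign, at 79.3 to 89.8 CPM in the controls, 48.3 and 69.0 CPM in NHD13, and 98.6 to 375 CPM in the libraries labelled NHD13/MSI2. Its log2 difference was 1.60 over control (adjusted p 0.0167 by edgeR) and 2.15 over NHD13 (adjusted p 0.0221), and neither passed. Their summed level was 4302 to 4749 CPM in the controls, 2528 and 2758 CPM in NHD13 and 2292 to 3015 CPM in the libraries labelled NHD13/MSI2. The summed level of 7 neutrophil markers was 2215 to 4180, 3141 and 4425, and 8434 to 14360 CPM in the same order, with none of the markers at 0. Mpo alone was called, from a mean of 1549 CPM in the controls to 10791 CPM in the libraries labelled NHD13/MSI2. The other 6 had negative log2 differences, among them Ltf at -1.88 and Ngp at -1.80 (adjusted p 0.0378 and 0.0288 by edgeR), and the median of the 7 was -1.71. That of 4 B cell markers was 45.7 to 54.1, 80.8 and 125, and 258 to 437 CPM, with Cd79a and Cd79b called higher. Ebf1 and Ms4a1 had negative log2 differences over control, of -2.53 and -0.08, and neither passed. Ms4a1 was at 0 in NHD13. The 4 erythroid markers summed to 6.68 to 9.30, 1.83 and 10.2, and 0.499 to 3.53 CPM, with Hba-a1 at 0 in all groups and Hbb-b1 at 0 in both groups with the fusion. The 5 megakaryocyte markers summed to 71.7 to 209, 79.5 and 676, and 14.5 to 43.3 CPM, and Gp1bb was at 0 in the last group. The 5 T cell markers summed to 0.664 to 6.56, 6.94 and 10.97, and 2.22 to 2.71 CPM, and Cd3e was at 0 in the controls. The part of these differences in the Hoxa values was not tested.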

How the data were processed

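RNA-seq of sorted LSKs was deposited by the authors as whole-number counts per gene symbol in 9 columns, 1 for each library, without normalization. Their processing notes name STAR, HTSeq, DESeq and mm9, and versions, annotation and strand setting are not given in the sources used here. The names below the March genes stood 2 rows too high, and 11942 names were moved down. This left 13 rows unnamed (0.0253 to 0.0323% of a library) and 24060 named rows. With the move, the median mean count of 26 housekeeping genes was 10336.9, against 157.9 without it. The Hoxa rows were not affected, but results on any gene with a moved name rest on this move. The 2 blank rows held at most 0.00816% of a library.

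Counts were filtered by filterByExpr, scaled by TMM and fitted in edgeR 4.0.16 (R 4.3.3) with all 9 libraries in 1 quasi-likelihood model. A gene was called at a Benjamini-Hochberg adjusted p under 0.01 over 13355 tested genes. The procedure was tested on simulated data, but no outcome is given here, so this adds no support to the calls. A floor of 3 counts, 0.120 to 0.195 CPM, covers counting error only. Each library was counted as a replicate. Within a group, libraries differed beyond counting noise, but this spread may be technical and does not show that they are independent. Libraries of different groups with the same replicate number had correlations of deviations of -0.0716 to 0.194. The deviations of the 2 NHD13 libraries mirror each other, and these values do not settle whether replicate numbers pair the libraries. Alternatives were DESeq2 1.42.0, RLE factors, no filter, an adjusted p under 0.05, fits of only the groups compared, the replicate number as a block, libraries left out, CPM without TMM factors and the longest transcript as length. Names as deposited, and control replicates 2 and 3 left out together, were added after seeing the data. Some genes of the lists are not reported here. Named from the lists were at most 4 called genes with the largest changes, and for likeness the 5 genes with the highest r. Mpo, Ltf, Ngp, Cd79a, Cd79b, Ebf1, Ms4a1, Cd34, Slamf1, Ly6a, Hoxaas3 and markers at 0 were named after their values were seen. The members and lists were chosen with earlier results of these data known. Protein sequences were not used here.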

Additional observations from a re-analysis of the deposited data

How the results depend on the processing

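In the comparison of the libraries labelled NHD13/MSI2 with NHD13, the count of 0 called members became 1 with DESeq2, with no filter on low counts and with an adjusted p under 0.05, and was 0 to 1 with each library left out in turn. In NHD13/MSI2 over control, the count of 5 became 0 with control replicates 1 and 3 left out together, 0 with control replicates 2 and 3 left out together, and 2 to 5 with each library left out. In NHD13 over control, the count of 2 became 4 with DESeq2, 4 with an adjusted p under 0.05, 1 with RLE factors, 1 with no filter, 0 in a fit of only the groups compared, 0 with either pair of controls left out, and 0 to 2 with each library left out. With the replicate number as a block, the counts were 0, 3 and 0 in the same order of comparisons. Among 136 refitted log2 fold changes of single members in the first comparison and the third each, and 135 in the second, 3 in all changed sign. That of Hoxa6 in NHD13/MSI2 over control became 0.19 without control replicates 1 and 3, and that of Hoxa3 in NHD13/MSI2 over NHD13 was -0.103 to 0.072 with each library left out. The calls of Hoxa7 and Hoxa10 in NHD13/MSI2 over control held in 15 of 17 settings, all but the 2 that left a single control, where 95 and 118 genes in all were called. The lone control was then assumed to vary like the other groups.

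Over all genes, 423, 1474 and 138 were called in the same order. DESeq2 called 1296, 2591 and 603, and an adjusted p under 0.05 gave 1177, 2745 and 386. In the first comparison 30 were called in a fit of only the groups compared, 203 with the block, 38 and 41 with the pairs of controls left out, and 128 to 646 with each library left out. In the third these were 83, 101, 7 and 8, and 38 to 251, and in the second 647 to 2066 were called with each library left out. With names as deposited the calls numbered 423, 1476 and 137, with 0, 5 and 2 members. Of 27 mean levels, 1 moved without TMM factors, that of Hoxa5 in the controls to 5.27 CPM. With the longest transcript as length, 17 of 27 shares moved by over 1 SD. Hoxa7 then took 17.0% in the controls and 52.3% in the libraries labelled NHD13/MSI2. The share of Hoxa9 went from 42.7 to 49.7% in the controls and from 32.6 to 37.8% in the libraries labelled NHD13/MSI2, so shares depend on the chosen length. With 2 NHD13 libraries and counts under 40 for Hoxa4, Hoxa6 and Hoxa11, differences of these genes may go undetected at this depth.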
